A study of Mus musculus with 4 samples.

Results

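The expression of 9 genes of central nervous system myelin, Mbp, Mobp, Mog, Mag, Cnp, Mal, Cldn11, Fa2h and Ugt8a, was examined in the mouse amygdala in the presence and absence of the P2X7 receptor and after an immune challenge. All probes that carry the name of 1 of these genes in the scanner files were taken, which gave 18 of the 41174 transcript probes on the array. Of these, 16 passed the filter on dim signal that left 28347 probes in all (19463 genes), and every one of the 9 genes kept at least 1 probe. The probes that did not pass were 1 of the 2 for Mog, well above background on 3 of 16 arrays, and 1 of the 3 for Ugt8a, well above background on 0 of 16. The labels describe male mice of the strain C57BL/6J, aged 10 weeks, either wild type or lacking the P2X7 receptor, the product of P2rx7, which opens as an ion channel on binding ATP. They name no allele or founder line for the deletion. They were injected intraperitoneally with saline or with 7.5 µg of lipopolysaccharide (LPS, a component of the bacterial cell wall), and RNA was taken from the whole amygdala 6 h later. Each of the 4 groups, wild-type saline, wild-type LPS, knockout saline and knockout LPS, held 4 mice per the labels and had 4 single-colour (Cy3) Agilent arrays. The labels do not tie an array to a mouse, so a p-value here reflects how far the arrays within a group differ, which may be technical.

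Myelin is the membrane that oligodendrocytes wrap around axons, and it speeds conduction of the action potential. Its layers are held together by basic proteins on the cytoplasmic face and by proteolipids and adhesion proteins in the membrane. Its lipids are rich in galactosylceramide and sulphatide, many of them with 2-hydroxylated fatty acids. The genes studied here are transcribed mostly in mature, myelinating oligodendrocytes, so in a piece of brain tissue their level follows both the number of these cells and the RNA in each. With RNA from whole tissue, fewer cells of a type and less RNA per cell cannot be told apart.

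The level of a gene was read from 60-base probes, and for genes with several probes the reading depended on which bases of the transcript were probed. The following 4 probes are shown because, as described further on, each is a separate reading of a gene with several probes or the sole reading that was kept. Positions are on mouse build mm9, as the files give them, and strand is that of the gene. The annotation of that build was not used here, so exons and untranslated regions are not assigned.
Mog (A_52_P85040, chr17:37157407-37157466, minus strand): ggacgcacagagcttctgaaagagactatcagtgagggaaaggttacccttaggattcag
Mag (A_52_P375021, chr7:31692038-31692097, minus strand): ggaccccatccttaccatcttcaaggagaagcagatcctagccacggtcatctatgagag
Mobp (A_51_P291224, chr9:120077006-120077065, plus strand): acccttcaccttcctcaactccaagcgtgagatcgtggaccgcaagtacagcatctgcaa
Ugt8a (A_51_P506822, chr3:125570466-125574530, minus strand): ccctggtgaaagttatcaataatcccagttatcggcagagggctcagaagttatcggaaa
The coordinates of the Ugt8a probe run over 4065 bases although the probe has 60, so its bases lie in separate pieces of the genome.

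The sequence just before the start of transcription was examined for a letter pattern, since most of these genes were lower in knockout together. Sox10, a factor that activates myelin genes, is known to bind sites with the core ACAAAG, which reads CTTTGT on the other strand. The same letters lie within sites described for TCF/LEF factors. Windows of 250 bases before RefSeq start sites (assembly GRCm38.p6) were examined for 7 of the genes, 9 windows in all. Of these, 4 windows, belonging to Mobp, Cnp and Mag, held a match on either strand. Mbp and Fa2h were not among the genes examined, so this count does not cover them. The 2 Mag windows with a match overlap and share a single match. Over all 32851 windows of that length, 16.5% held at least 1 match. Windows of Mobp and Cnp are shown because Mobp held the most matches of any gene and Cnp held 1, with the matches in capitals.
Mobp (chr9:120149492-120149741, plus strand): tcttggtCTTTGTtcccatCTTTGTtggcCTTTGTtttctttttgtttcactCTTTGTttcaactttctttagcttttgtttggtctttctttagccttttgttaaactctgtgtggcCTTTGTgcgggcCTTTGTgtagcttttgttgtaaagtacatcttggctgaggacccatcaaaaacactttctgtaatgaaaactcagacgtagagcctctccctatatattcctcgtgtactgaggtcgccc
Cnp (chr11:100574689-100574938, plus strand): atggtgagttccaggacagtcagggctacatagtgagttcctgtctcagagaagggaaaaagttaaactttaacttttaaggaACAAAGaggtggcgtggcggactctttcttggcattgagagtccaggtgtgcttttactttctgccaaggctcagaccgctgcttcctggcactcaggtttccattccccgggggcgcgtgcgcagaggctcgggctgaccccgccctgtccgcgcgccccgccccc
Mobp held 6 matches, all reading CTTTGT, between 115 and 238 bases before the start. Only 1 of the 32851 windows (0.00304%) held as many, which is that of Mobp itself. The Cnp match lay 162 bases before the start. These matches describe letters and were not tested as binding sites.

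Values are log2 of the processed intensity after subtraction of the log2 75th percentile of each array, so a level of 0 is the brightness of the array's 75th percentile. Levels were compared between groups for each probe, never between probes. The 75th percentile ranged from 345.9 to 1165 intensity units and 58.1% to 71.9% of probes were well above background. All wild-type arrays lay on slides 1 and 2 and were scanned in 1 session, and all knockout arrays lay on slides 3 and 4 and were scanned in another, so genotype cannot be told apart from slide and scan session. P2rx7 was read by 2 probes. On A_52_P393314 it was lower in knockout, at −1.51 ± 0.25 (log2, SE, n = 4, limma, adjusted p = 0.0002) after saline, from 0.42 ± 0.50 (SD) to −1.09 ± 0.34, and at −1.65 ± 0.25 (adjusted p = 0.000101) after LPS. On the dimmer A_51_P506733 the differences were 0.24 ± 0.29 (adjusted p = 0.515) and 0.06 ± 0.29 (adjusted p = 0.88), and the position of either probe relative to the deleted part is not known. The whole list of 8 genes of cortex and basolateral amygdala, among them Neurod2, Mef2c and Rspo2, passed the filter.

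The arrays of wild-type saline did not behave as 1 group. The mean of 11 genes that respond to LPS, such as Cxcl10 and Icam1, given as the deviation from each gene's mean over all 16 arrays, was 1.56 on array 1 and 1.59 on array 2 of wild-type saline but −3.43 on array 3 and −3.48 on array 4. It lay between 0.04 and 2.13 in wild-type LPS, between −3.19 and −2.89 in knockout saline and between 2.58 and 3.03 in knockout LPS. Arrays 1 and 2 of wild-type saline therefore go against their label on these genes, and the myelin gene results that use this group are also given without them. P2rx7 on A_52_P393314 was then −1.94 (limma adjusted p = 0.000157) between the genotypes after saline.

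By the brightest probe of each gene, 8 of the 9 myelin genes were lower in the knockout amygdala in at least 1 treatment. After saline the fall passed the test for Mal, Fa2h, Mobp, Mog, Cnp, Cldn11 and Ugt8a, with differences from −1.39 to −2.09 (log2), that is 2.63-fold to 4.26-fold. After LPS it passed for these and for Mag, while the brightest Mbp probe was higher in knockout. LPS itself gave no called change of any of the 9 genes in either genotype. In wild type, with all arrays, 0 of the 11 LPS response genes were called either. The panels of myelin gene levels show each array.

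**Figure D1:**
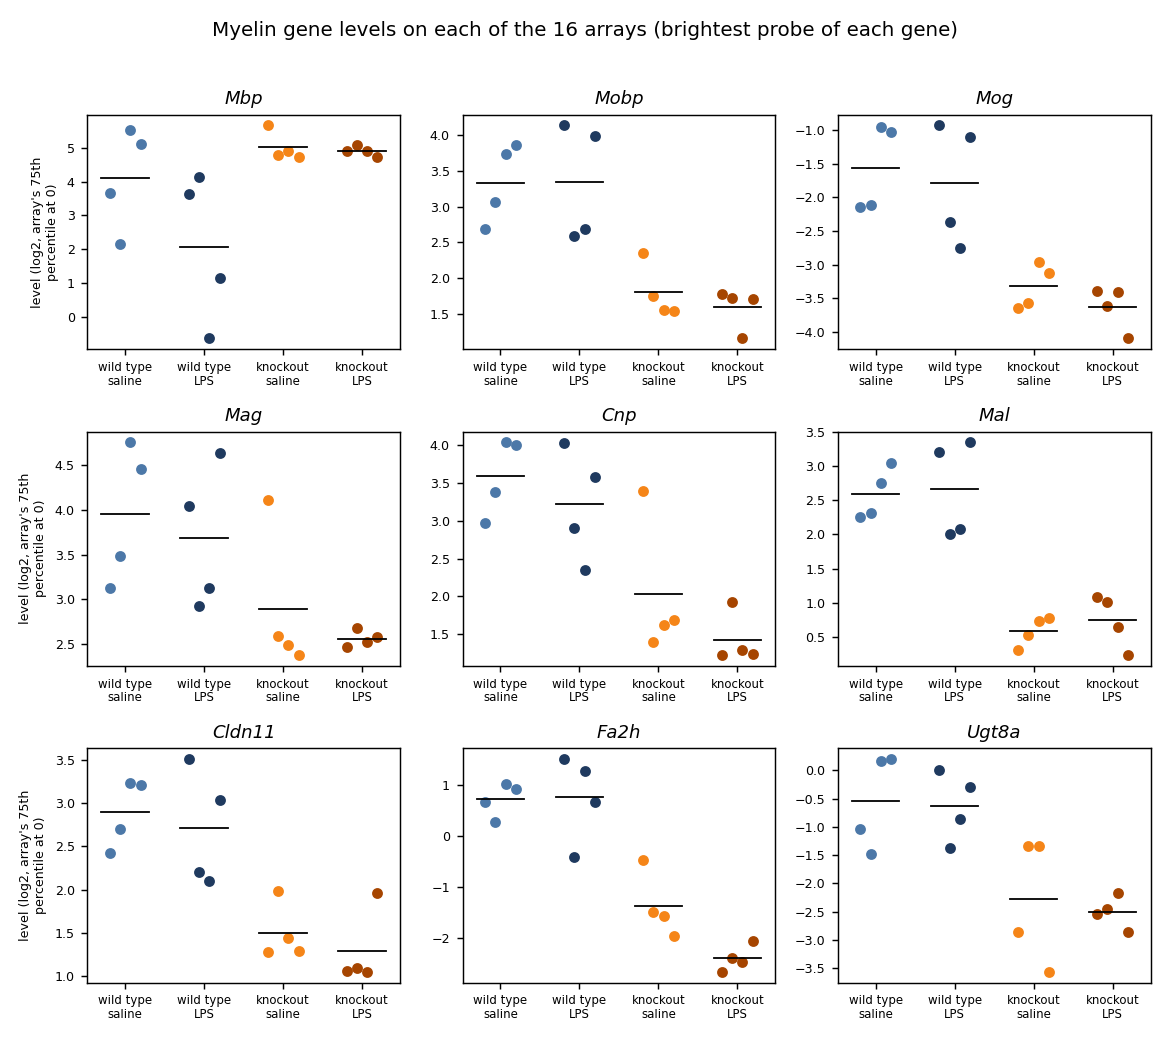
Level of each of the 9 myelin genes on the 16 arrays (vertical axes, log2, with the array's 75th percentile at 0, a separate scale in each panel), by group on the horizontal axis. Points are arrays 1 to 4 of a group from left to right and bars are group means (n = 4). For Mal, Mobp, Mog, Cldn11 and Fa2h every knockout array lay below every wild-type array of the same treatment, and for Mbp the highest array was in knockout saline, at 5.66.

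Genotype was compared within each treatment to ask what differs without the receptor, with and without the challenge. In knockout saline against wild-type saline, 7 of the 9 genes were called lower, 0 were called higher and 2, Mag and Mbp, were not called (limma, Benjamini-Hochberg adjustment over all 28347 probes, adjusted p under 0.05). The background was high, since 52.1% of all probes tested were called, 25.7% lower and 26.4% higher in knockout. The median of the 9 differences was −1.57 (log2), beside −0.02 over all probes, and the median size of the difference over all probes, without its sign, was 0.69. The groups did not overlap for 5 of the 9 genes, against 47.5% of all probes. Counted by probe, 13 of the 16 were lower, 3 were not called and 11 had groups without overlap. The lower probes without overlap include Ugt8a A_51_P506822, which passed the filter only through wild type.

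In knockout LPS against wild-type LPS, 8 of the 9 genes were called lower and 1, Mbp, higher. Of all probes 48.4% were called in this comparison, 24.5% lower and 23.9% higher. The median of the 9 differences was −1.80 (log2) beside −0.03 over all probes, and the groups did not overlap for 9 of the 9 genes, against 52.3% of all probes. Counted by probe, 15 of the 16 were lower and 1 was higher, and 15 had groups without overlap. Ugt8a A_51_P506822, kept only through wild type, is again among the lower probes without overlap. With so large a share of the array called, a call alone does not set a myelin gene apart.

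**Figure D2:**
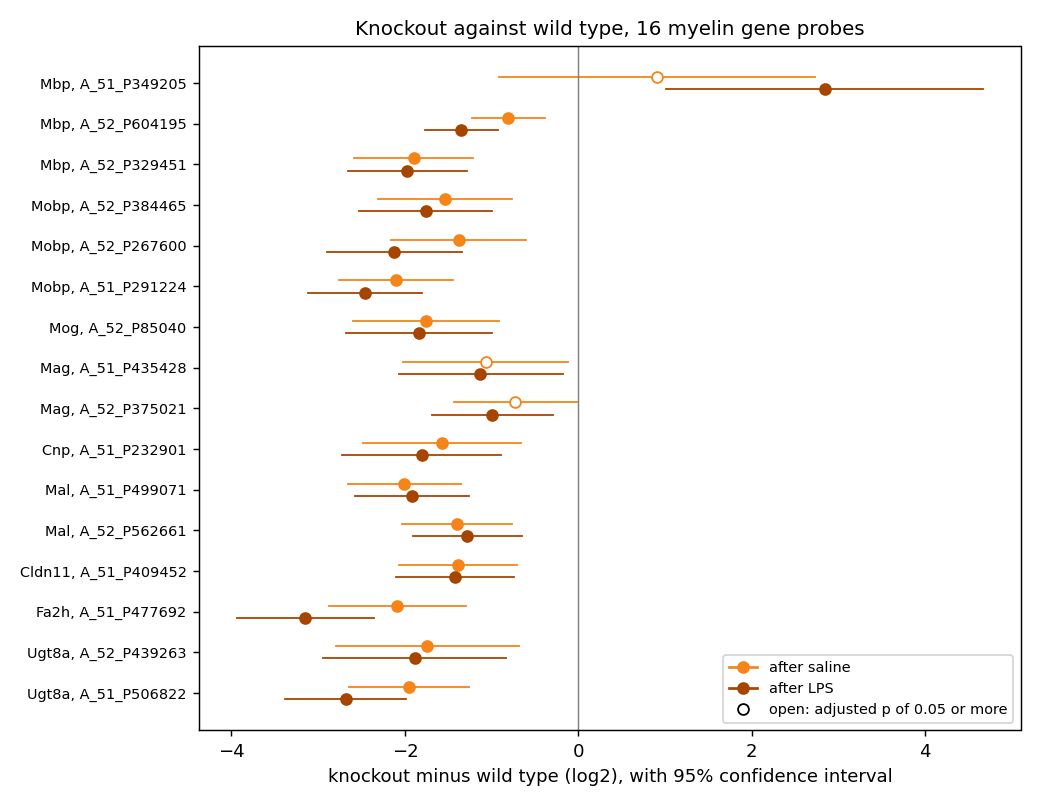
Difference between knockout and wild type (horizontal axis, log2) for the 16 myelin gene probes on the vertical axis, with 95% confidence intervals from limma (n = 4 arrays per group), after saline and after LPS. Open points have an adjusted p of 0.05 or more. Every estimate lies below 0 except those of the Mbp probe A_51_P349205, at 0.91 and 2.84.

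Mbp, the myelin basic protein that compacts the cytoplasmic faces of the sheath, was read by 3 probes that did not agree. On A_51_P349205, the brightest, arrays 1 to 4 of wild-type saline read 3.67, 2.15, 5.53 and 5.12 and those of wild-type LPS 3.64, 4.13, −0.65 and 1.15. Knockout saline read 5.66, 4.79, 4.89 and 4.74 and knockout LPS 4.91, 5.08, 4.91 and 4.72. The knockout arrays were close together, whereas the wild-type arrays were spread widely, with array 3 of wild-type LPS far below the rest. This probe was not called after saline, at 0.91 ± 0.86 (log2, SE, 95% interval −0.92 to 2.73, limma adjusted p = 0.392), and was higher in knockout after LPS, at 2.84 ± 0.86 (interval 1.01 to 4.67, adjusted p = 0.0131), that is 7.16-fold. SDs of the groups on this probe were 1.54, 2.23, 0.43 and 0.14, so a spread pooled over groups is smaller than that of wild-type LPS.

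The other Mbp probes read lower levels in knockout. On A_52_P604195, wild-type saline read 3.91, 3.78, 4.06 and 4.08, wild-type LPS 4.59, 4.01, 4.67 and 4.03, knockout saline 3.63, 3.14, 3.03 and 2.80, and knockout LPS 2.94, 2.97, 2.92 and 3.08. No knockout array reached any wild-type array. The differences were −0.81 ± 0.20 (log2, SE, n = 4, limma adjusted p = 0.00358) after saline and −1.35 ± 0.20 (adjusted p = 8.00e-05) after LPS. The dimmest Mbp probe, A_52_P329451, has coordinates that run over 2305 bases. It read 1.30, 1.19, 2.08 and 2.11 in wild-type saline, 2.31, 1.06, 1.08 and 2.48 in wild-type LPS, −0.40, −0.32, −0.11 and −0.12 in knockout saline, and −0.10, −0.61, 0.12 and −0.37 in knockout LPS. Again all knockout arrays lay below all wild-type arrays, with differences of −1.90 ± 0.32 (adjusted p = 0.00024) after saline and −1.97 ± 0.32 (adjusted p = 0.000192) after LPS. With Mbp read by this probe, a choice made after the data were seen, 8 of 9 genes were lower after saline and 9 of 9 after LPS. Read by the mean of its 3 probes, Mbp gave −0.60 (adjusted p = 0.167) and −0.16 (adjusted p = 0.732). The direction for Mbp thus differs between its probes, and which bases each shares with particular transcripts of the gene was not tested.

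**Figure D3:**
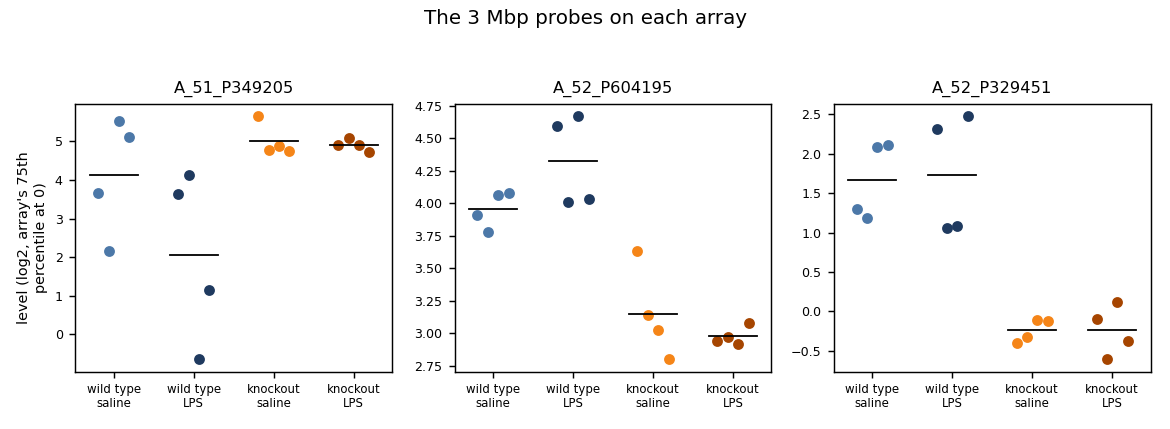
Level of Mbp on the 16 arrays (vertical axes, log2, with the array's 75th percentile at 0, a separate scale in each panel) as read by its 3 probes, 1 panel each, by group on the horizontal axis. Points are arrays and bars are group means (n = 4). The left panel, A_51_P349205, has wild-type arrays from −0.65 to 5.53, and in both other panels all 8 knockout arrays lie below all 8 wild-type arrays.

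Mobp, another basic protein of compact myelin, was lower in knockout on all 3 of its probes. On the brightest, A_52_P384465 (chr9:120090501-120090560), wild-type saline read 2.68, 3.07, 3.74 and 3.86, wild-type LPS 4.14, 2.59, 2.68 and 3.99, knockout saline 2.35, 1.75, 1.55 and 1.54, and knockout LPS 1.78, 1.72, 1.15 and 1.71. The groups of the 2 genotypes did not overlap, although array 1 of knockout saline came near the lowest wild-type arrays. The difference was −1.54 ± 0.36 (log2, SE, n = 4, 2.91-fold lower, limma adjusted p = 0.00258) after saline and −1.76 ± 0.36 (3.39-fold, adjusted p = 0.00108) after LPS. The probe whose sequence is given above, A_51_P291224, read 1.23, 1.06, 1.23 and 1.37 in wild-type saline, 2.29, 0.45, 0.97 and 1.44 in wild-type LPS, −0.48, −1.35, −0.74 and −0.95 in knockout saline, and −1.06, −1.27, −0.81 and −1.55 in knockout LPS. Here every wild-type array was above 0 and every knockout array below it. This was the widest gap of the Mobp probes, at −2.10 ± 0.31 (4.3-fold, adjusted p = 7.56e-05) and −2.46 ± 0.31 (5.5-fold, adjusted p = 2.11e-05). On A_52_P267600 the differences were −1.38 ± 0.37 (adjusted p = 0.00582) and −2.12 ± 0.37 (adjusted p = 0.000296).

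Mog, an immunoglobulin-type protein of the outermost myelin lamella and a well-known autoantigen in models of demyelination, was read by 1 kept probe, A_52_P85040, whose sequence is given above. Wild-type saline read −2.15, −2.11, −0.95 and −1.03, wild-type LPS −0.93, −2.37, −2.76 and −1.10, knockout saline −3.64, −3.57, −2.96 and −3.12, and knockout LPS −3.40, −3.62, −3.41 and −4.10. All knockout arrays were below the wild-type arrays of the same treatment, and each wild-type group was split between a pair of higher and a pair of lower arrays. Mog was lower in knockout, at −1.76 ± 0.40 (log2, SE, n = 4, 3.39-fold, limma adjusted p = 0.00186) after saline and −1.84 ± 0.40 (3.59-fold, adjusted p = 0.00143) after LPS. With another background correction (normexp) the differences were −0.12 (limma adjusted p = 0.778) and −0.89 (adjusted p = 0.0607), so neither call held. Normexp added an offset of 50, and knockout intensities of this probe were 30.8 to 74.3. It also gave raised values on array 2 of wild-type saline and arrays 1, 2 and 4 of knockout saline. The part of either in the lost calls was not tested.

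Mag, an adhesion protein of the innermost myelin layer that faces the axon, gave the least certain difference. On A_51_P435428 (chr7:31684231-31684290) wild-type saline read 3.13, 3.48, 4.76 and 4.46, wild-type LPS 4.05, 2.92, 3.12 and 4.64, knockout saline 4.11, 2.59, 2.49 and 2.37, and knockout LPS 2.46, 2.67, 2.52 and 2.58. Array 1 of knockout saline read as high as wild-type arrays, while the other 7 knockout arrays lay below them all. The difference after saline was −1.07 ± 0.45 (log2, SE, n = 4, 95% interval −2.02 to −0.12, limma adjusted p = 0.0551) and did not pass, but without array 1 of knockout saline it was −1.48 (adjusted p = 0.00834). After LPS it was −1.13 ± 0.45 (interval −2.07 to −0.18, adjusted p = 0.0475), a call that was lost with slide as a random block (adjusted p = 0.0852). The call after LPS was also lost when any 1 of 10 arrays was left out, with adjusted p up to 0.151 without array 4 of wild-type LPS. The probe whose sequence is given above, A_52_P375021, gave −0.73 ± 0.33 (adjusted p = 0.0774) and −0.99 ± 0.33 (adjusted p = 0.0224). Its call after LPS was lost with slide as a random block (adjusted p = 0.0575) and when array 1 or 4 of wild-type LPS or array 1 or 2 of knockout LPS was left out, with adjusted p from 0.0566 to 0.0824.

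Cnp, a phosphodiesterase that keeps cytoplasmic channels open within myelin, was read by A_51_P232901 (chr11:100442617-100442676). Wild-type saline read 2.97, 3.38, 4.04 and 4.00, wild-type LPS 4.03, 2.91, 2.35 and 3.58, knockout saline 3.40, 1.40, 1.62 and 1.69, and knockout LPS 1.22, 1.92, 1.29 and 1.23. As for Mag, array 1 of knockout saline stood within the wild-type range and the rest of the knockout arrays below it. Cnp was lower in knockout, at −1.57 ± 0.43 (log2, SE, n = 4, 2.97-fold, limma adjusted p = 0.0067) after saline and −1.80 ± 0.43 (3.49-fold, adjusted p = 0.00303) after LPS.

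Mal, a proteolipid that takes part in sorting proteins and lipids to the myelin membrane, had the smallest adjusted p after saline among the brightest probes of the 9 genes. On A_51_P499071, aligned in the file at chr2:127458966-127458993, wild-type saline read 2.25, 2.32, 2.75 and 3.04, wild-type LPS 3.21, 2.00, 2.08 and 3.35, knockout saline 0.30, 0.53, 0.73 and 0.77, and knockout LPS 1.09, 1.01, 0.64 and 0.23. The lowest wild-type array, at 2.00, was well above the highest knockout array, at 1.09. Mal was lower in knockout, at −2.01 ± 0.31 (log2, SE, n = 4, 4.02-fold, limma adjusted p = 0.000107) after saline and −1.92 ± 0.31 (3.77-fold, adjusted p = 0.000163) after LPS. The other Mal probe, A_52_P562661, gave −1.40 ± 0.30 (adjusted p = 0.00121) and −1.28 ± 0.30 (adjusted p = 0.00252).

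Cldn11, the claudin that forms the tight junctions between myelin lamellae, was read by A_51_P409452 (chr3:31062922-31062981). Wild-type saline read 2.43, 2.70, 3.23 and 3.21, wild-type LPS 3.51, 2.20, 2.10 and 3.04, knockout saline 1.28, 1.99, 1.44 and 1.29, and knockout LPS 1.06, 1.10, 1.05 and 1.96. The genotypes did not overlap, with array 2 of knockout saline and array 4 of knockout LPS nearest to wild type. Cldn11 was lower in knockout, at −1.39 ± 0.32 (log2, SE, n = 4, 2.63-fold, limma adjusted p = 0.00218) after saline and −1.42 ± 0.32 (2.68-fold, adjusted p = 0.00205) after LPS.

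Fa2h and Ugt8a, both of them genes of myelin lipid synthesis, were also lower. Fa2h, the hydroxylase that makes the 2-hydroxylated fatty acids of myelin galactolipids, was read by A_51_P477692 (chr8:113869301-113869360). Wild-type saline read 0.65, 0.27, 1.01 and 0.92, wild-type LPS 1.50, −0.41, 1.26 and 0.65, knockout saline −0.48, −1.50, −1.57 and −1.96, and knockout LPS −2.67, −2.40, −2.47 and −2.06. The genotypes did not overlap within a treatment, and the knockout LPS arrays were the lowest of all. Fa2h was lower, at −2.09 ± 0.37 (log2, SE, n = 4, 4.26-fold, limma adjusted p = 0.000335) after saline and −3.15 ± 0.37 (8.87-fold, adjusted p = 1.23e-05) after LPS. By the brightest probes this was the widest difference of the 9 genes in each treatment, while Mobp on A_51_P291224 was at −2.10 after saline. Without arrays 1 and 2 of wild-type saline the difference after saline was −2.34 (adjusted p = 0.00215), and that of Ugt8a was wider.

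Ugt8a, the transferase that makes galactosylceramide, was read by A_52_P439263 (chr3:125568995-125569054). Wild-type saline read −1.04, −1.48, 0.16 and 0.20, wild-type LPS 0.01, −1.37, −0.87 and −0.30, knockout saline −2.86, −1.34, −1.34 and −3.57, and knockout LPS −2.54, −2.46, −2.18 and −2.86. After saline, arrays 2 and 3 of knockout reached the level of the lowest wild-type arrays, and after LPS the genotypes did not overlap. Ugt8a was lower in knockout, at −1.74 ± 0.50 (log2, SE, n = 4, 3.33-fold, limma adjusted p = 0.00877) after saline and −1.88 ± 0.50 (3.69-fold, adjusted p = 0.00587) after LPS. The probe whose sequence is given above, A_51_P506822, was well above background on 4 and 4 of the wild-type arrays but on 2 and 1 of the 4 arrays of knockout saline and knockout LPS. It thus passed the filter through wild type, and its knockout level is measured on few arrays. As read, the differences were −1.95 ± 0.33 (adjusted p = 0.000213) and −2.68 ± 0.33 (adjusted p = 1.61e-05), and with normexp they were 0.08 (adjusted p = 0.856) and −0.86 (adjusted p = 0.069).

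Without arrays 1 and 2 of wild-type saline, 8 of the 9 genes were lower in knockout saline, with differences from −1.72 to −2.46 (log2), while 36.5% of all probes were called. Mag was then lower, at −1.72 (limma adjusted p = 0.0157), as were Mog at −2.33 (adjusted p = 0.0016) and Ugt8a at −2.46 (adjusted p = 0.00426). Mbp on its brightest probe turned to −0.30 (adjusted p = 0.822). In this comparison wild-type saline is left with 2 arrays and is taken to vary like the other groups.

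In the authors' deposited table of fold changes, Fa2h was 4.24-fold lower in knockout after saline and 8.84-fold lower after LPS. The authors' deposited table gave Mal as 4.01-fold and 3.77-fold lower and Mobp, on A_51_P291224, as 4.3-fold and 5.49-fold lower. For Mbp on A_51_P349205 the authors' deposited table gave 1.87-fold and 7.19-fold higher in knockout, and 4.13-fold lower after LPS in wild type. The Mag probe A_52_P375021 was not in that table, nor were the 2 probes left out by the filter.

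LPS was compared with saline within each genotype to ask what the challenge did to these genes. In wild type, 0 of the 9 genes were called, with differences from −2.05 to 0.07 (log2), a median of −0.18 and adjusted p from 0.743 to 1 (limma, n = 4). Of all probes, 0% were called in this comparison, 6.3% had an unadjusted p under 0.05, and the median over all probes was −0.03. The 11 LPS response genes had a median of 1.68, and 0 of them were called. The absence of a call here therefore does not show that LPS left the myelin genes unchanged. Of the 9 genes only Mbp had an unadjusted p under 0.05, at −2.05 ± 0.86 (95% interval −3.88 to −0.22, adjusted p = 0.743) on A_51_P349205. On A_52_P604195 the same comparison gave 0.37 ± 0.20 and on A_52_P329451 0.06 ± 0.32, neither of them called. For Mal and Mobp the differences were 0.07 ± 0.31 (interval −0.59 to 0.73) and 0.01 ± 0.36 (interval −0.76 to 0.78).

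Treatment was spread over the slides of a genotype, so that LPS could also be compared within a slide. Within slide 1 the median difference of the 9 genes was 0.29 (log2), and within slide 2 it was −0.77, each over 2 arrays of each treatment and with 0 genes called. Without arrays 1 and 2 of wild-type saline, which both lay on slide 1, the median was −0.80, 0 genes were called and 2.3% of all probes were. All 11 LPS response genes were then called higher, with a median of 3.20. The 2 arrays were left out because of these same genes, so this count is not a separate test. Cnp was then at −0.80 (limma adjusted p = 0.542), Mog at −0.80 (adjusted p = 0.456) and Mal at −0.24 (adjusted p = 0.859). Mal, Mobp and Fa2h had then turned to below 0, while the other 6 genes were below 0 with or without these arrays.

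In knockout, 0 of the 9 genes were called after LPS, with differences from −1.02 to 0.16 (log2), a median of −0.23 and adjusted p from 0.202 to 0.964 (limma, n = 4). Of all probes, 3.04% were called in this comparison, and 0.931% of all probes were called lower. Of the LPS response genes, 10 of 11 were higher, with a median of 4.58. Of the 9 differences 8 were below 0, beside a median of −0.08 over all probes. Fa2h had the widest one, −1.02 ± 0.37 (95% interval −1.81 to −0.23, limma unadjusted p = 0.0146, adjusted p = 0.202). The saline and LPS arrays of knockout did not overlap for Fa2h. They did not overlap either for Ugt8a on A_51_P506822, at −0.78, a probe kept only through wild type. The share of all probes without overlap was not counted for this comparison, so the lack of overlap does not set these genes apart. The Fa2h difference was −0.80 within slide 3 and −1.24 within slide 4. The medians of the 9 genes within these slides were −0.08 and −0.34.

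The difference between the LPS responses of the genotypes was tested as an interaction. None of the 9 genes was called, with values from −1.06 for Fa2h to 1.93 for Mbp (log2, limma adjusted p from 0.813 to 0.996). Of all probes 0.00353%, which is 1 probe, were called. Again 0 of the 9 genes were called, with a median of 0.40, without arrays 1 and 2 of wild-type saline. The plot of LPS differences shows both genotypes side by side.

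**Figure D4:**
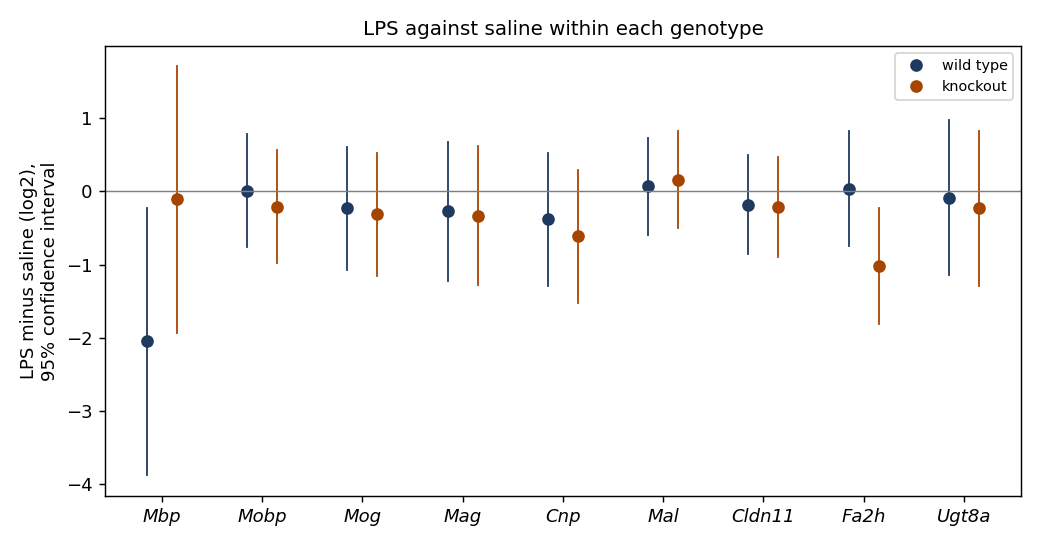
Difference between LPS and saline (vertical axis, log2) for the 9 myelin genes on the horizontal axis, by the brightest probe, within wild type and within knockout, with 95% confidence intervals from limma (n = 4 arrays per group). All intervals include 0 except that of Mbp in wild type, from −3.88 to −0.22, and that of Fa2h in knockout, from −1.81 to −0.23, and no gene had an adjusted p under 0.05.

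The arrays of wild type varied together over the myelin genes. The mean deviation of the 8 genes other than Mbp was 0.43, 0.52, 1.41 and 1.40 on arrays 1 to 4 of wild-type saline and 1.51, 0.13, 0.31 and 1.30 in wild-type LPS. It was −0.37, −0.70, −0.69 and −1.06 in knockout saline and −1.06, −0.94, −1.11 and −1.10 in knockout LPS. On this mean, which leaves out Mbp, all 8 knockout arrays lay below all 8 wild-type arrays. With Mbp included on its brightest probe the genotypes overlapped. On that mean of 9 genes array 3 of wild-type LPS was at −0.24, below array 1 of knockout saline at −0.15. On the mean of 8 genes, arrays 3 and 4 of wild-type saline and 1 and 4 of wild-type LPS stood above the other wild-type arrays. The mean deviation of the LPS response genes on the 4 arrays that stood above was −3.43 and −3.48 (saline) and 0.04 and 0.60 (LPS), and on the other 4 it was 1.56 and 1.59 (saline) and 2.13 and 1.87 (LPS). Its part in the spread of the myelin genes was not tested. The median SD over the brightest probes of the 9 genes, without their other kept probes, was 0.56 in wild-type saline and 0.80 in wild-type LPS. All kept probes of the array had 0.27 and 0.29 there. In knockout saline and knockout LPS it was 0.43 and 0.29, beside 0.39 and 0.23.

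The likeness between members was described by the deviations from group means over the 16 arrays, which share slides and scaling. Pearson's r of a gene with the mean of the other 8 was 0.87 for Mobp, 0.76 for Mog and Mag and 0.73 for Cnp. It was lower for Cldn11 at 0.65, Mal at 0.64, Ugt8a at 0.50, Mbp at 0.41 and Fa2h at 0.40. Over the 8 wild-type arrays r was 0.83 or more for all but Mbp, at 0.39, and Fa2h, at 0.37. Over the 8 knockout arrays it was 0.58 to 0.84 for Mbp, Mag, Fa2h, Mobp and Cnp and below 0, from −0.51 to −0.21, for Mog, Mal, Cldn11 and Ugt8a. Among 14133 other named genes, the 10 whose deviations were most like the mean of the members were Accs, Gsn, Cby2, Zfyve28, Ccdc13, Efhd1, Plekhg3, Slc8b1, St6galnac3 and Prr5l, with r from 0.952 down to 0.923. Over the wild-type arrays r was 0.94 to 0.99, and over the knockout arrays 0.61 to 0.92. Between levels, which include group differences, r was −0.14 for Accs, −0.06 for Cby2, −0.18 for Ccdc13 and 0.09 for Zfyve28. For the rest it was 0.59 to 0.95. Of the 10, Gsn, which encodes the actin-severing protein gelsolin, is in the list of other mature oligodendrocyte genes.

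Other genes of myelin and of oligodendrocytes were counted by lists, given here as genes lower, higher and not called in knockout, beside the shares of all probes above. Of 13 other myelin proteins, 4 were lower, 0 higher and 9 not called after saline (median 0.04, log2), and 4 were lower, 2 higher and 7 not called after LPS (median −0.38). After saline Tspan2, a tetraspanin, was lower in knockout, at −1.68 ± 0.26 (log2, SE, n = 4, limma adjusted p = 0.000123), as was Jam3 at −0.37 ± 0.15 (adjusted p = 0.047). With slide as a random block Jam3 was not called (adjusted p = 0.0752) and 3 of the list were lower. After LPS Cd9, another tetraspanin, was higher by 1.22 ± 0.27 (adjusted p = 0.00197). With slide as a random block Cd9 was the only gene of the list called higher after LPS.

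Genes for myelin lipid and sterol synthesis other than Fa2h and Ugt8a did not move one way. Of 17, 1 was lower, 2 were higher and 14 were not called after saline (median 0.09, log2), and 5 were lower, 3 higher and 9 not called after LPS (median −0.20). Fdft1, an enzyme of cholesterol synthesis, was lower in knockout after saline, at −0.56 ± 0.21 (SE, n = 4, limma adjusted p = 0.0371), a call that was lost with slide as a random block and when array 2, 3 or 4 of wild-type saline was left out. Without array 1 of knockout saline 3 genes were lower, and 4 with normexp or with quantile normalization. With slide as a random block or the array number as a block, 0 were lower after saline. After LPS, 3 were lower with normexp, and 2 were higher with slide as a random block.

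Of 9 oligodendrocyte transcription factors measured, 1 was lower, 3 were higher and 5 were not called after saline, and 3 were lower, 1 higher and 5 not called after LPS. Myrf, the activator of myelin genes in differentiating oligodendrocytes, named Gm98 in the files, was not well above background on any wild-type saline array and was at least 2.97-fold higher in knockout saline (limma adjusted p = 7.91e-05). Such a bound sets the brighter group's mean against, on each array of the dim group, the higher of the probe's own value and the lowest signal well above background. After LPS Myrf was well above background on 2 of 4 arrays in each genotype. Olig1, a lineage factor, was lower in knockout, at −0.67 ± 0.14 (adjusted p = 0.00125) after saline. Nkx6-2 was higher by 1.28 ± 0.37 (adjusted p = 0.00992) and Zfp536 by 0.50 (adjusted p = 0.037). With slide as a random block Zfp536 was not called (limma adjusted p = 0.0702). The factors called higher were then 2 after saline and 0 after LPS. The count of lower factors after saline was 2 when array 2 of wild-type saline, array 1 of wild-type LPS or array 1 of knockout saline was left out, and 3 with normexp or without arrays 1 and 2 of wild-type saline.

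Of 20 other genes of mature oligodendrocytes, 4 were lower, 1 was higher and 15 were not called after saline (median −0.26, log2), and 6 were lower, 2 higher and 12 not called after LPS (median −0.36). The 4 lower genes after saline were Qdpr at −1.58 ± 0.24 (SE, n = 4, limma adjusted p = 8.99e-05), Anln at −2.44 ± 0.49 (adjusted p = 0.000827; well above background on 1 of 4 knockout saline arrays), Trf, which encodes the iron carrier transferrin, at −1.13 ± 0.25 (adjusted p = 0.00151), and Enpp2 at −1.25 ± 0.33 (adjusted p = 0.00584). Without array 1 of knockout saline, 7 of the 20 were lower. With slide as a random block, 4 were lower and 0 higher after LPS. Of 12 genes of precursors and early oligodendrocytes, 3 were lower, 3 higher and 6 not called after saline (median −0.40), and 7 were lower, 1 higher and 4 not called after LPS (median −0.74). Enpp6, a marker of newly formed oligodendrocytes, was lower in knockout saline (adjusted p = 0.000305), with means of −5.07 in wild type and −6.80 in knockout, where no array read it well above background, so no fold is given. With Enpp6 at its bound the medians of the list were −0.09 after saline and −0.43 after LPS. Pdgfra was lower after saline, at −0.75 (limma adjusted p = 0.00268), and Cspg4, the NG2 proteoglycan of precursors, was higher by 1.40 ± 0.24 (adjusted p = 0.000292). With normexp 3 of the 12 were lower after LPS, and 4 with the filter that asked for signal on all 16 arrays, while after saline a fit with probe GC gave 6. With slide as a random block 1 of the 12 was higher after saline and 0 after LPS.

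Of the 5 lists just described, 1 transcription factor and 1 precursor gene were lower and 0 genes higher after LPS in knockout (limma, n = 4), and in wild type 0 were called, as were 0% of all probes there. With arrays 1 and 2 of wild-type saline left out, 1 gene of these lists was lower and 1 higher after LPS in wild type. Gpr17, a receptor of committed precursors, read 4.23, 3.63, 3.39 and 3.43 in knockout saline and 2.20, 2.13, 1.83 and 2.10 in knockout LPS. The LPS difference was −1.61 ± 0.23 (log2, SE, adjusted p = 0.00274) with no overlap. Nkx2-2, a factor of the oligodendrocyte lineage, fell as well, again with no overlap, with a difference of −1.29 ± 0.24 (adjusted p = 0.00757). The LPS differences of the genotypes were not called different for either gene, the interaction being −1.41 ± 0.33 (adjusted p = 0.275) for Gpr17 and −0.79 ± 0.34 (adjusted p = 0.735) for Nkx2-2.

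Markers of neighbouring brain regions and of other cell types were counted in the same way. The shares of all probes called lower and higher in knockout were 25.7% and 26.4% after saline, and 24.5% and 23.9% after LPS. Of 11 striatal genes, 8 were lower, 0 higher and 3 not called in knockout after saline (median −1.11, log2), and 4 lower, 0 higher and 7 not called after LPS (median −0.64). The mean deviation of the striatal list lay between 0.29 and 1.07 in wild-type saline, −0.16 and 1.20 in wild-type LPS, −0.73 and −0.44 in knockout saline, and −0.51 and −0.25 in knockout LPS. Of 9 hippocampal genes, 5 were lower, 0 higher and 4 not called after saline (median −1.09), and 4 lower, 0 higher and 5 not called after LPS (median −1.03). Their mean deviation lay between 0.00 and 1.56, 0.07 and 0.23, −0.49 and −0.33, and −0.62 and −0.37 in the same groups. Within wild-type saline both lists, like the 8 myelin genes, were highest on arrays 3 and 4. After LPS the striatal count was 2 without array 1 of wild-type LPS or array 2 of knockout LPS, and the hippocampal count was 2 without array 1, 3 or 4 of knockout LPS. With normexp the striatal and hippocampal counts were 4 and 2 after saline and 1 and 0 after LPS, and with slide as a random block the striatal count after LPS was 2. With the filter that asked for signal on all 16 arrays the hippocampal count after saline was 3. The counts after saline were 7 and 7 without arrays 1 and 2 of wild-type saline. Isl1, a factor of striatal cholinergic neurons, was lower, at −2.53 ± 0.34 (SE, n = 4, limma adjusted p = 3.36e-05) after saline. Dsp, a gene of the dentate gyrus, was not well above background on any knockout array and on 2 of the 4 wild-type saline arrays, where its mean was at least 2.82-fold higher (limma adjusted p = 0.00132). With Dsp at its bound the hippocampal medians were −1.09 after saline and −0.16 after LPS. The part of these regions in the myelin differences was not tested.

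**Figure D5:**
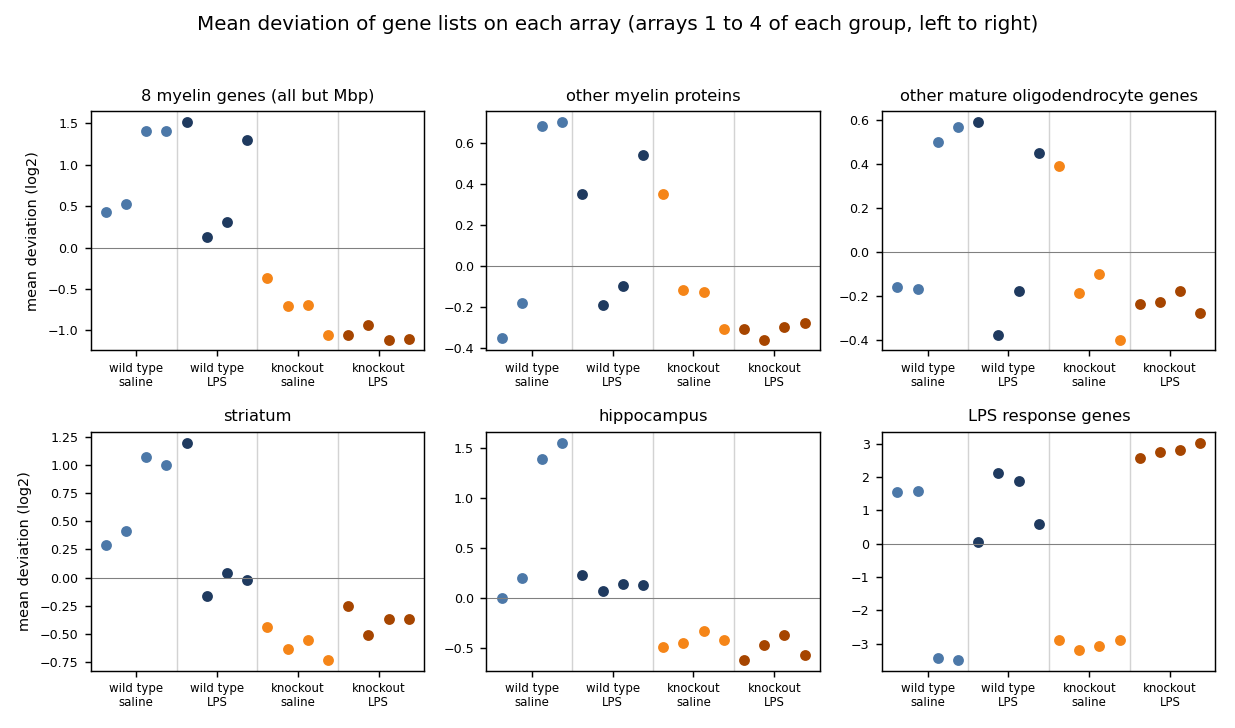
Mean deviation of 6 gene lists (vertical axes, log2, each gene's mean over the 16 arrays at 0, a separate scale in each panel) on arrays 1 to 4 of each group from left to right. The 8 myelin genes, which leave out Mbp, lie between 0.13 and 1.51 in wild type and between −1.11 and −0.37 in knockout. The LPS response genes on arrays 1 and 2 of wild-type saline, at 1.56 and 1.59, stand apart from arrays 3 and 4.

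Of 10 neuronal genes, 4 were higher and 1 lower in knockout after saline (median 0.38, log2), and 5 higher and 1 lower after LPS (median 0.52). Their mean deviation lay between −0.62 and −0.07 on the wild-type arrays and between 0.21 and 0.53 on the knockout arrays. Of 7 microglial genes 2 were higher and 0 lower after saline, and 2 higher and 1 lower after LPS. Of 6 astrocyte genes 3 were higher and 2 lower after saline, and 3 higher and 1 lower after LPS. Of 8 genes of cortex and basolateral amygdala 1 was higher and 3 were lower after saline, and 2 were higher and 1 was lower after LPS. Of the 11 LPS response genes 0 were higher and 6 lower after saline, and 3 were higher and 0 lower after LPS. Without arrays 1 and 2 of wild-type saline, which were left out because of these same genes, 2 were higher and 0 lower after saline. After LPS 8 were then higher. Of 4 Schwann cell genes measured, 2 were higher and 1 lower in each treatment. With 52.1% of all probes called after saline and 48.4% after LPS, a call alone does not set genes of these lists apart. The part of any of these lists in the myelin differences was not tested.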

How the data were processed

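Total RNA was labelled with Cy3 and read on Agilent arrays with Feature Extraction 9.5, per the submitters' processing notes. Per the file headers, the deposited processed intensity had its background subtracted and a spatial trend removed array by array, with no scaling between arrays. The authors also deposited log2 values averaged over each group, which fit the scanner differences, with a centring that is not given in the sources used here, and a fold table of the authors' group comparisons. In both, 32 detection columns were not used.

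Control spots were left out and 0 to 79 outlier spots per array set to missing. No spot was saturated. Over 20703 probes, any 2 arrays differed by a median of at least 0.12 (log2), so none was a copy. A probe was kept where at least 3 of the 4 arrays of 1 or more groups read it well above background. limma 3.58.1 (lmFit, eBayes; R 4.3.3, statmod 1.5.0, data.table version 1.17.8), checked on simulated data, fitted 4 group means over 16 arrays, with adjustment over all kept probes. Array numbers are those in the scanner files. A gene was read by its brightest kept probe. The number of arrays limits the precision. Symbols came from RefSeq accessions for 24844 probes and from the files for 16330.

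Named genes were all members, at most 4 genes per list with the smallest p, and the 10 genes most like the members, and some of these are not reported here. Rspo2, Neurod2, Cxcl10 and Icam1 were named as examples outside that rule. Members and lists were chosen with earlier results of these data known. Alternatives covered background correction, scaling, the filter on dim probes, the reading of genes with several probes, probe GC, slide, the array number as a block and each array left out.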

Additional observations from a re-analysis of the deposited data

Results flagged for a closer look

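In 6 of 64 sets of 4 arrays (the 16 kept probes in 4 groups), 1 array stood apart by Dixon's test at the 95% level, and chance gives about 1 in 20. In knockout saline this was array 1 for 3 genes. Mbp on A_51_P349205 read 5.66 (log2) there against 4.74 to 4.89 on the other arrays, Mag on A_51_P435428 read 4.11 against 2.37 to 2.59, and Cnp read 3.40 against 1.40 to 1.69. In knockout LPS the arrays differed by gene. Mobp on A_52_P384465 read 1.15 on array 3 against 1.71 to 1.78, Cnp read 1.92 on array 2 against 1.22 to 1.29, and Cldn11 read 1.96 on array 4 against 1.05 to 1.10.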

How the results depend on the processing

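No count of called myelin genes moved by over 1.5 times. LPS called 0 of 9 genes in either genotype, and the interaction 0 of 9, under every alternative run. The genotype counts were 7 to 8 after saline and 8 to 9 after LPS, also with each array left out in turn. Of 852 genotype values 811 kept direction and side of the threshold, 22 lost the call, 13 gained it and 6 turned, and of 540 LPS values 40 turned, none of them called. The scalings tried moved the median of all probes by less than 0.1.

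Normexp gave values above the background-subtracted signal plus offset on 4 arrays, array 2 of wild-type saline and arrays 1, 2 and 4 of knockout saline. With it, Mobp and Fa2h after LPS in wild type were −0.08 and −0.12. Mbp and Mobp after LPS in knockout were 0.15 and 0.03, and Ugt8a A_51_P506822 between genotypes after saline was 0.08. With quantile normalization Mbp after LPS in knockout was 0.05. With the mean of its probes Mbp was −0.60 and −0.16 between genotypes after saline and LPS. With A_52_P329451, an alternative chosen after seeing the data, it was −1.90 and −1.97, and 0.06 for LPS in wild type. Within slide 1 the LPS differences of Mog, Mag, Cnp, Cldn11 and Ugt8a were 0.29, 0.28, 0.01, 0.24 and 0.84, within slide 2 those of Mal, Mobp and Fa2h −0.22, −0.51 and −0.85, and within slide 3 those of Mbp, Mag and Ugt8a 0.09, 0.06 and 0.09. Without arrays 1 and 2 of wild-type saline, Mal, Mobp and Fa2h were −0.24, −0.45 and −0.21 after LPS, and Mbp −0.30 between genotypes. The causes of these turns were not tested.

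With each array left out in turn, LPS differences in wild type ran from −0.51 to 0.10 for Mog, −0.16 to 0.29 for Mal, −0.25 to 0.27 for Mobp, −0.45 to 0.02 for Cldn11, −0.21 to 0.43 for Fa2h and −0.40 to 0.16 for Ugt8a. In knockout they ran from −0.21 to 0.10 for Mbp, −0.50 to 0.08 for Mag and −0.66 to 0.08 for Ugt8a. Arrays with the same number did not deviate together (median r of −0.02 over 24 pairs, 2 of them above 0.1). With the array number as a replicate block, 7 and 8 genes were called between genotypes, Mag after LPS being at −1.13 (limma adjusted p = 0.0628) and its other probe after saline at −0.73 (adjusted p = 0.0484).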
